A study of Mus musculus with 26 samples.

Results

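The mesenteric arteries of 3 groups of mice that carried no change in Panx1 were compared with one another by bulk RNA sequencing. These were the global wild-type mice (WT, 3 libraries), the controls of the Panx1 Y198F line (genotype Y198F-/- in the labels, 3 libraries) and the controls of the Panx1 Y308F line (Y308F-/-, 3 libraries), chosen by their titles and genotypes: 9 of the 26 libraries of the series. All mice were male and 8 weeks old, and no agent is named. The other libraries hold a global Panx1 knockout (KO), the mutants Y198F+/+, S205A+/+ and Y308F+/+ and the S205A-/- controls, and are used here only beside a result. Y198F, S205A and Y308F name amino acid changes in PANX1, and -/- here means without the change. The labels give 3 vascular trees per genotype. They do not say whether a library is 1 animal, which strain or colony a group came from, or at what hour arteries were taken, so the p-values measure the spread between these libraries. The controls are described as littermates or wild-type mice, without saying which group had which.

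Pannexin 1, the product of Panx1, forms membrane channels through which cells of the vessel wall release ATP, and mesenteric arteries are a common model of small resistance arteries. Control groups of separate mouse lines can differ without any engineered change. Lines that are bred apart come to carry different alleles, often as blocks of linked genes on 1 chromosome. Arteries collected at different hours or under different handling differ in transcripts of the circadian clock, a loop in which BMAL1, CLOCK and NPAS2 switch on the Per, Cry and Nr1d genes and output factors such as Dbp, and in transcripts switched on by glucocorticoid hormones.

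The WT libraries held 19.8 to 20.1 M counts, the Y198F controls 17.3 to 18.9 M and the Y308F controls 18.7 to 23.1 M. Smooth muscle contractile genes summed to 35400 to 58600 CPM (counts scaled to a common library total) in these 9 libraries and endothelial genes to 4260 to 12700. CPM are scaled with edgeR's TMM factors over all 26 libraries, so that a level can be read across groups. Ribosomal RNA took 4.12 to 5.84% of counts in WT, 2.82 to 3.5% in the Y198F controls and 3.28 to 7.09% in the Y308F controls. WT 3 and Y308F control 1 stood apart from the rest: WT 3 lay at -61 on the first principal component (26% of the variance) and had 12300 CPM of white adipocyte genes, and Y308F control 1 lay at 63.9 on the second (16.4%) and had 12700 CPM of endothelial genes. The groups overlapped on the first component. On the third (12.7%) the WT libraries lay at 15.2 to 35.3 and the others at 4.05 or lower.

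In edgeR no gene passed the threshold of an adjusted p of 0.05 among the 3 control groups. Of 16745 genes tested with edgeR's quasi-likelihood F test in 1 fit of the 9 libraries, 0 (0%) were called over the 3 groups together, and 0 (0%) in each of the 3 pairs. At an unadjusted p under 0.05 there were 1178 genes (7.03%) over the 3 groups, 1379 (8.24%) between Y198F controls and WT, 991 (5.92%) between Y308F controls and WT, and 1069 (6.38%) between Y198F and Y308F controls. DESeq2, run as the alternative tool on the same genes, called 61 (0.364%) over the 3 groups with its likelihood ratio test. In the pairs it called 62 (0.37%) between Y198F controls and WT, 26 higher and 36 lower, 11 (0.0657%) between Y308F controls and WT, and 12 (0.0717%) between the 2 sets of line controls. The median size of a gene's log2 fold change was 0.18 to 0.19 in the 3 pairs, below its median standard error of 0.216 to 0.217. The 3 pairs share libraries, so their gene lists are not compared.

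The call of the genes with the smallest p depended on the tool and the filter: of the first 10 by edgeR p over the 3 groups, edgeR called 0, DESeq2 called 10 and edgeR with no filter on low counts called 9. They were led by Plac9 (chr14:25886804-25903634, GRCm39), which encodes a small protein named for the placenta. Plac9 stood at 333, 392 and 368 CPM in WT, at 183, 162 and 163 in the Y198F controls and at 292, 311 and 250 in the Y308F controls. The Y198F controls lay below all 6 other libraries, with a log2 fold change of -1.07 (SE 0.14, n = 3 against 3 libraries) against WT and an edgeR adjusted p of 0.136; over the 3 groups the adjusted p was 0.526 in edgeR, 0.000541 in edgeR with no filter and 1.32e-10 in DESeq2. Tmem254, a membrane protein gene near it on chromosome 14 (chr14:25923724-25928096), was named after its values were seen. Tmem254 had 52.2, 58.6 and 83.4 CPM in WT, 35.5, 35.8 and 31.9 in the Y198F controls and 67, 59.6 and 51.9 in the Y308F controls (log2 fold change -0.88 against WT, SE 0.17, edgeR adjusted p 0.484). In groups outside the comparison, Plac9 was at 89.5 to 93.6 CPM and Tmem254 at 14.9 to 20 CPM in KO, while the Y198F mutants had 297 to 371 and 52.2 to 60.5. Ribosomal RNA took only 0.108 to 0.115% of counts in the Y198F mutants, so their libraries differ from those of the controls in more than the genotype. The Y198F controls sat between KO and the other groups for both genes, and apart from the mutants of their own line.

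Rgs1, an inhibitor of G protein signalling that is abundant in leukocytes, had 5.84, 6.76 and 5.34 CPM in WT, 26.6, 25.2 and 17 in the Y198F controls and 7.46, 17 and 12.7 in the Y308F controls. It was lowest in WT without overlap, and its log2 fold change between Y198F controls and WT was 1.97 (SE 0.285, edgeR adjusted p 0.208). Over the 3 groups its adjusted p was 0.707 in edgeR and 9.28e-06 in DESeq2. The median log2 fold change in that pair was -0.53 for lymphoid and -0.24 for macrophage genes, and the part of leukocyte content in the Rgs1 values was not tested. Tmem86a, an enzyme that breaks down lysoplasmalogens, had 17.2, 14.7 and 21.6 CPM in WT, 10.4, 13.4 and 10.7 in the Y198F controls and 24.3, 23.2 and 25.5 in the Y308F controls, so that the 3 groups did not overlap. Gkn3, a gastrokine that marks arterial endothelium in mice, was at 13.5 to 15.5 CPM in the Y198F controls against 22.7 to 36.9 in the other 6 libraries. Gm42047 was at 3.95 to 8.21 against 12.3 to 20.1 CPM. Of the stretches of 100 bases in its transcripts, 47.7% also occur in transcripts of another gene, so its counts are uncertain.

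The remaining genes of the first 10 by p over the 3 groups were Map3k6, a stress kinase, Ypel2, Chic1, Tnfsf10, the death ligand TRAIL, and Ccdc85b. Map3k6 had 28.6 to 29.7 CPM in the Y198F controls, 31.2 to 41.9 in the Y308F controls and 43.5, 80.5 and 69.6 in WT. Ypel2 was lowest in WT (26.1 to 33.3 CPM) and highest in the Y198F controls (46.6 to 51.9), with the Y308F controls between them at 33.5 to 43.2. Chic1 (5.98 to 6.92 CPM in WT) and Tnfsf10 (23.4 to 28.5) were lower in WT than in all 6 other libraries, which held 9.75 to 15.7 and 30.9 to 46.5. Ccdc85b was at 36.2 to 40.5 CPM in the Y198F controls and at 48.6 to 84.9 elsewhere. Their adjusted p over the 3 groups was 0.707 each in edgeR and 0.00198 (Map3k6) to 0.0114 (Ypel2 and Tnfsf10) in DESeq2; with no filter, edgeR called all of these except Chic1 (adjusted p 0.0821). In 8 of the 10 genes the Y198F controls lay outside the range of the other 6 libraries, in 6 the WT libraries did, and in 1 the Y308F controls did. Over all tested genes these shares were 4.83, 3.51 and 2.51%. Since p chose the 10 genes, their position is a description.

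**Figure D1:**
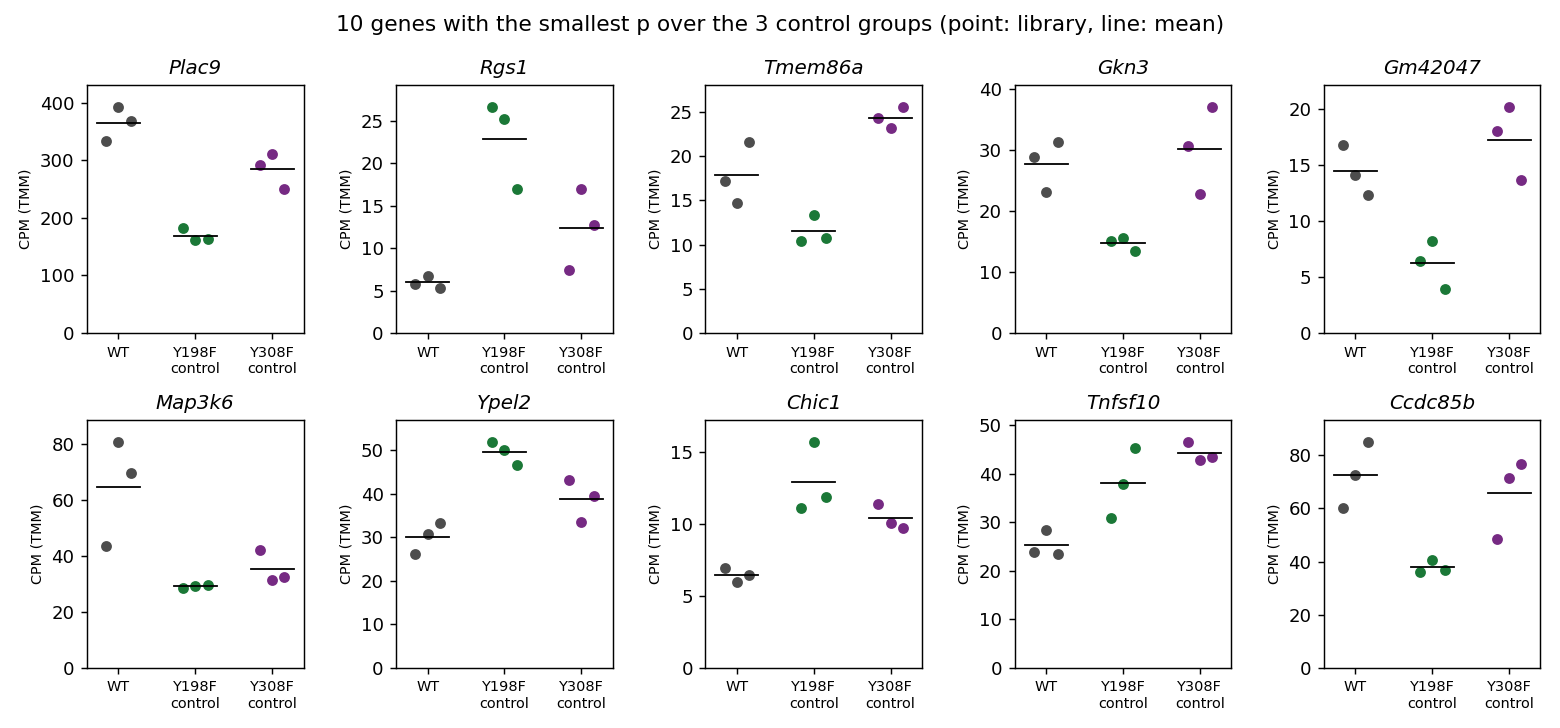
Level in CPM (scaled by TMM) of the 10 genes with the smallest edgeR p over the 3 control groups; each point is 1 library and each line the mean of 3. The Y198F controls are lowest for Plac9, at 162 to 183 CPM, and WT is lowest for Rgs1, at 5.34 to 6.76 CPM.

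Of the 29 gene lists examined, the evening genes of the clock were the only one in which every tested member lay apart between a pair of groups. All 11 tested genes of the evening output (the period genes, Nr1d1 and Nr1d2, Ciart, Bhlhe40, Bhlhe41 and the factors Dbp, Tef and Hlf) were lower in the 3 Y198F controls than in the 3 WT libraries, without overlap. Over all tested genes 9.7% were. The median log2 fold change of the list was -2, against 0 over all tested genes. None of the 11 passed edgeR's adjustment (0%), and 10 had an unadjusted p under 0.05 (8.24% of all genes did, in either direction). DESeq2 called 2 of the 11 in this pair (0.37% of all genes), Dbp and Bhlhe40, both lower. Dbp, a transcription factor that carries the clock's rhythm to other genes, had 105, 169 and 256 CPM in WT, 4.81, 11.6 and 11.9 in the Y198F controls, and 3.45, 193 and 214 in the Y308F controls. Y308F control 1 was thus at the level of the Y198F controls and the other 2 Y308F controls at that of WT. The log2 fold change of Dbp between Y198F controls and WT was -4.2 (SE 1.3, edgeR adjusted p 0.568).

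The summed level of the evening genes repeated this split. It was 996 to 1920 CPM in WT, 338 to 461 in the Y198F controls, and 235, 1330 and 1550 in the Y308F controls. The exact two-sided permutation test of Y198F controls against WT gave p = 0.1, the smallest that 3 against 3 libraries allow. The morning arm lay the other way: Bmal1, the activator of the loop, had 23, 6.04 and 1.44 CPM in WT, 54.6, 50 and 50 in the Y198F controls and 66.1, 8.39 and 4.79 in the Y308F controls. Of its 6 tested genes, 4 (Bmal1, Npas2, Clock and Nfil3) were higher in Y198F controls than in WT without overlap, against 7.2% of all genes, and the list's median log2 fold change was 1.37. Within WT, the summed level of replicate 1 lay nearest the Y198F controls on both arms. Without WT 3 the median of the evening genes was -1.57. Y308F controls and WT overlapped for all 11 evening genes.

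Per1, Tef and Ciart carry an E-box (the letters CACGTG, which read the same on both strands and are bound by CLOCK and BMAL1) within 200 bases before their canonical start in GENCODE. These are 3 of 11 evening genes (27.3%), and 5.96% of the windows of 16683 tested genes hold it. It was also in 1 of 6 morning genes (Cry1, 16.7%) and in 2 of 10 glucocorticoid and metallothionein genes (Fkbp5 and Per1, 20%). The window of Per1, the gene of a clock repressor that had 78.8, 160 and 188 CPM in WT, 33.9, 38.7 and 46.9 in the Y198F controls and 21.7, 59.4 and 81.4 in the Y308F controls, is shown from GRCm39 (chr11:68989068-68989267, plus strand) with the E-box in capitals. Other transcripts of Per1 start further upstream, and for those the window is intronic.
Per1: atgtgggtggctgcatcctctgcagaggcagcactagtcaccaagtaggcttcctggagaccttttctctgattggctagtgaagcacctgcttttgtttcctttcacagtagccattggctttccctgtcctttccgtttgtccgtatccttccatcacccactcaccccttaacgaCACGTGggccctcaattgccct
The match is a description of the sequence and not a measured site. Another clock motif, the D-box TTATGTAA that DBP, TEF and HLF bind, was in the windows of Per2 and Per3 (2 of 11 evening genes, 18.2%) and in 0.504% of all windows. A form of the glucocorticoid response element, ACANNNTGT, was in 0 of 11 evening genes, in 1 of 10 glucocorticoid and metallothionein genes (Mt1) and in 2.95% of all windows. Each motif was searched on both strands.

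**Figure D2:**
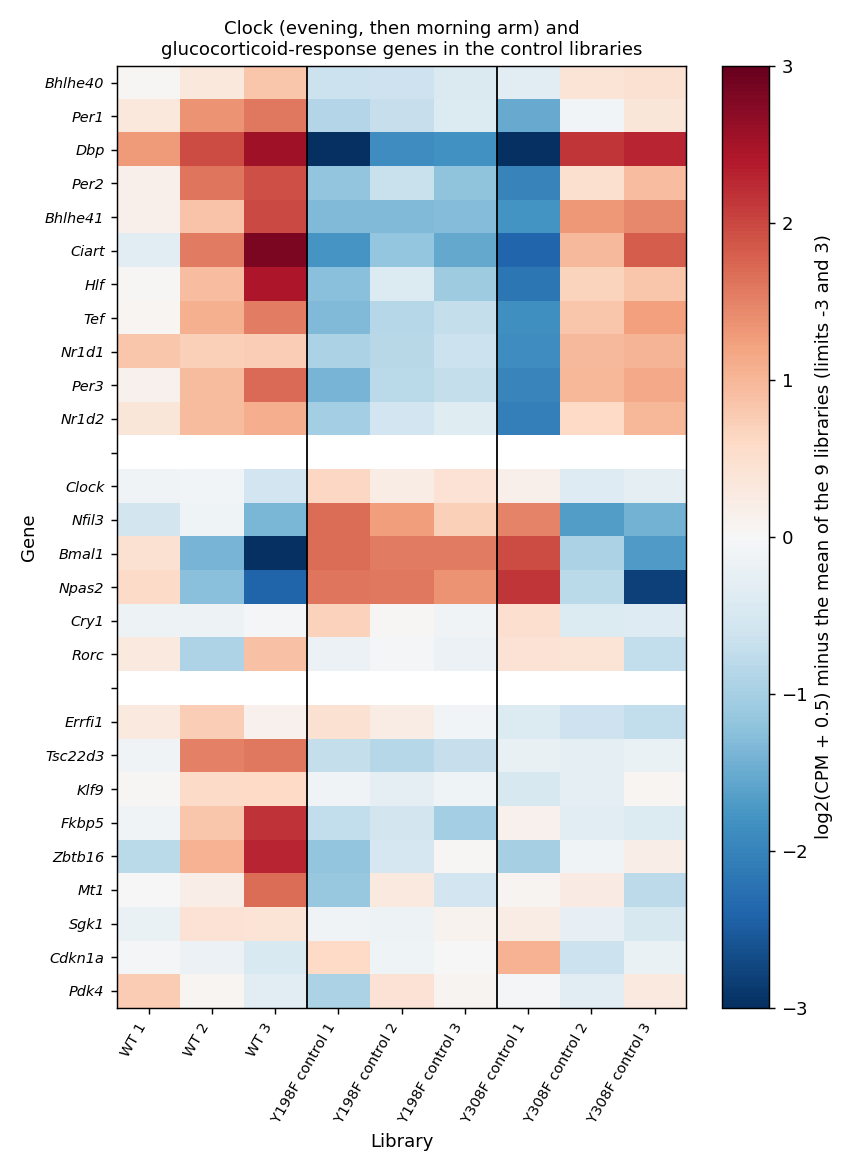
Each cell is 1 gene in 1 of the 9 control libraries: log2 of CPM plus 0.5, minus the gene's mean over the 9, with evening clock genes at the top, the morning arm in the middle and the other glucocorticoid and metallothionein genes below. The 3 Y198F controls and Y308F control 1 are blue in the top block, where their summed level is 235 to 461 CPM, and red for Bmal1 and Npas2.

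Glucocorticoid-responsive genes had their highest summed level in the WT libraries. The summed level of the list, which shares Per1 with the evening genes, was 712 to 1240 CPM in WT, 569 to 584 in the Y198F controls and 537 to 638 in the Y308F controls. Both differences from WT, which share the WT libraries, gave the smallest exact p of 0.1. In all, 9 of the 87 such tests over the 29 lists and 3 pairs (10.3%) gave that p, these and those of the clock lists included. Tsc22d3, which encodes the anti-inflammatory glucocorticoid-induced leucine zipper, had 56.6, 175 and 184 CPM in WT, 36.8, 33.4 and 37.4 in the Y198F controls and 52.1, 50.4 and 53.2 in the Y308F controls. Its log2 fold change against WT was -1.92 (SE 0.38, edgeR adjusted p 0.484) in the Y198F and -1.42 (SE 0.373, edgeR adjusted p 0.804) in the Y308F controls. Fkbp5, a chaperone partner of the glucocorticoid receptor, ran from 18.8 to 93.5 CPM in WT, from 9.87 to 13.8 in the Y198F controls and from 15.2 to 22.3 in the Y308F controls. Of the 10 tested genes, 4 were lower in Y198F controls than in WT without overlap, where 9.7% of all genes were, and 2 were lower in Y308F controls, where 4.26% of all genes were. None passed edgeR's adjustment, and DESeq2 called 3 over the 3 groups, where it called 0.364% of all genes: Tsc22d3, Fkbp5 and Errfi1. The list's median log2 fold change in Y198F controls against WT was -0.88, and -0.48 without WT 3. WT 3 also had the most white adipocyte RNA, and the part of this in the glucocorticoid values was not tested.

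MHC class I genes, which present peptides to T cells, were lower in Y198F than in Y308F controls without overlap for 9 of 18 tested members (8.2% of all genes were), with a median log2 fold change of -0.42. The log2 fold change was -0.49 (SE 0.151) for H2-T22 and -0.51 (SE 0.193) for H2-K1, each with an edgeR adjusted p of 0.754. The H2 genes have similar copies, so their split is uncertain. Summed MHC class I was 4200, 3430 and 2640 CPM in the Y308F controls and 2370 to 2580 in the Y198F controls. Endothelial genes had a median of -0.55 in the same pair, with 3 of 15 lower without overlap, and were highest in Y308F control 1, as MHC class I was; their part in the MHC class I values was not tested. Proliferation genes were higher in Y308F controls than in WT without overlap for 5 of 16 (5.06% of all genes), with 55.2 to 65.6 summed CPM against 35.9 to 45. Immediate early genes had a median log2 fold change of 0.48 in Y198F controls against WT, with 3 of 18 higher without overlap (7.2% of all genes) and 1 of 18 lower (9.7%). Their sum was 2890 CPM in Y198F control 1 but 1150 and 1250 in Y198F controls 2 and 3, within the WT range of 784 to 1270. Smooth muscle contractile genes, the main products of the arterial wall, had medians of -0.05, -0.08 and -0.01 in the 3 pairs, and 1 of 16 lay apart in any pair, where 16.9, 9.33 and 13.9% of all genes did in either direction. No member of any of the 29 lists passed edgeR's adjustment in the test over the 3 groups.

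Among markers of neighbouring tissues, white adipocyte genes had a median log2 fold change of -1.47 in Y198F controls against WT, with 5 of 14 lower without overlap (9.7% of all genes). Their sum was 1700 to 2520 CPM in the Y198F controls and 2600, 2150 and 12300 in WT 1 to 3. Adipoq, the adipocyte hormone adiponectin, was at 49.5, 41.1 and 271 CPM in WT, at 35.4 to 50.9 in the Y198F controls and at 81.9, 212 and 8.92 in the Y308F controls. Mesothelial genes summed to 45.7 and 37.7 CPM in Y308F controls 1 and 2, and to 15.3 or less in the other 7 libraries. In bulk RNA, fewer cells of a type and less RNA per cell cannot be told apart. Only 3 of 12 pancreatic acinar and 3 of 10 intestinal genes were expressed enough to be tested.

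Panx1 itself (chr9:14913424-14956813) had 4.96, 3.38 and 4.88 CPM in WT, 3.25, 3.49 and 2.23 in the Y198F controls and 4.37, 3.4 and 1.76 in the Y308F controls. The 3 groups overlapped, and exact two-sided permutation tests of log2 levels gave p = 0.2, 0.3 and 1 for Y198F controls against WT, Y308F controls against WT and the 2 line controls. KO had 0.582 to 1.36 CPM. Of 27 tested genes that start within 5 Mb of Panx1, 0 were called and 2 (7.41%) had an unadjusted p under 0.05 over the 3 groups, near the 7.03% of all genes. They were Sesn3, a stress-induced regulator of growth signalling, at 22.6 to 33.3 CPM in WT, 37.1 to 43.2 in the Y198F controls and 29.2 to 30.5 in the Y308F controls, and 5330432J10Rik, at 0.783 to 1.09 CPM in the Y198F controls and 1.76 to 3.8 in the other 6 libraries. Both were named after their values were seen. Nnt, the mitochondrial transhydrogenase that is partly deleted in C57BL/6J mice, was at 0.257 to 1.66 CPM in all 9 control libraries. Of 7 tested genes from a list that varies between mouse strains, 2 had an unadjusted p under 0.05 over the 3 groups, where 7.03% of all genes did. None of the 7 was called, as no gene was.

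Runs of neighbouring genes were looked for along each chromosome, since alleles that differ between lines come in blocks. With 0 genes called there was no run of 3 called genes. A looser rule, taken after the values were seen, used the 222 genes (1.33%) with an unadjusted p under 0.01 and gave 1 run. An unadjusted p under 0.05 would give 119 runs. The 1 run is not stable to the choice of libraries: the count was 0 without Y198F control 1 or 3, and 26 without Y308F control 3. It was 3 without WT 1 or WT 3, 7 without WT 2, 2 without Y198F control 2, 9 without Y308F control 1 and 6 without Y308F control 2. Of the 222 genes, 56 (25.2%) had another of them within 1 Mb, and 27.7% of all tested genes had one of them nearby. The run lies on chr2:174968908-176619602 and holds 6 genes, Gm14399, Zfp968, Zfp969, 2210418O10Rik, Zfp973 and Gm14296, part of a large cluster of genes whose KRAB zinc finger proteins bind DNA and silence it. Zfp968 had 61.9, 62.5 and 62.9 CPM in WT, 69.6, 72.3 and 74.3 in the Y198F controls and 55.4, 58.2 and 57.8 in the Y308F controls. Its log2 fold change between the 2 sets of line controls was 0.36 (SE 0.0932, edgeR adjusted p 0.754). Zfp973 had 15.9 to 17.7 CPM in the Y198F controls and 10.6 to 14.6 in the other 6 libraries, a difference of 0.62 (SE 0.151, edgeR adjusted p 0.754) from the Y308F controls.

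Reads of these genes are hard to tell apart. All stretches of 100 bases in the transcripts of Zfp969 (100%) and of 2210418O10Rik (100%) occur in other genes too, as do 95.3% of those of Zfp968, 70.7% of Zfp973, 53.2% of Gm14399 and 40.9% of Gm14296. For Zfp968, Zfp973 and Zfp969 the likeness extends beyond the transcripts, into the 100 bases before their canonical starts in GRCm39. The windows of Zfp968 (chr2:175214129-175214228, plus strand) and Zfp973 (chr2:176362215-176362314, plus strand) are shown. They are in lower case since no part is marked.
Zfp968: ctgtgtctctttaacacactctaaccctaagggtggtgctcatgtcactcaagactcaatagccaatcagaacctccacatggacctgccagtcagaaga
Zfp973: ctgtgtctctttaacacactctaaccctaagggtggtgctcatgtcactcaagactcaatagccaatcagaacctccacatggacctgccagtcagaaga
Zfp968 and Zfp973 are 100% identical over these 100 bases. The window before Zfp969 aligns with each of them at 52.2% over its whole length, but it is offset from them. Its opening bases, from cactcaagac to cagtcagaaga, are letter for letter those that close the windows of Zfp968 and Zfp973. The 52.2% is therefore not a measure of how alike the shared stretch is. For the other members the canonical start lies inside the gene or the window overlaps an exon, and those windows are not compared. The 6 genes are therefore not 6 independent measurements.

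Of all 28 tested genes inside the span, 26 were higher in Y198F controls than in WT, with a median log2 fold change of 0.24. These include the 6 genes whose p defined the run. Of the 22 others, 20 (90.9%) were higher in Y198F controls than in WT, with a median of 0.23, and 6 were higher in Y198F than in Y308F controls without overlap (5.73% of all genes). Most of these 22 also share transcript stretches with other genes, so their counts are not independent. The 371 tested genes named Zfp with a number elsewhere in the genome had a median of 0.17 in Y198F controls against WT, and 281 of them (75.7%) were higher. Of the 371, 44 were higher in Y198F than in Y308F controls without overlap. Over all tested genes the median in Y198F controls against WT was 0 and 8397 of 16745 (50.1%) were higher. Base composition and length moved with the same contrast. The quartile of genes with the lowest GC content had a median of 0.09 and the quartile with the highest -0.07 between Y198F controls and WT, and the quartile of the shortest genes had -0.09 and that of the longest 0.08. The part of these in the zinc finger values was not tested.

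**Figure D3:**
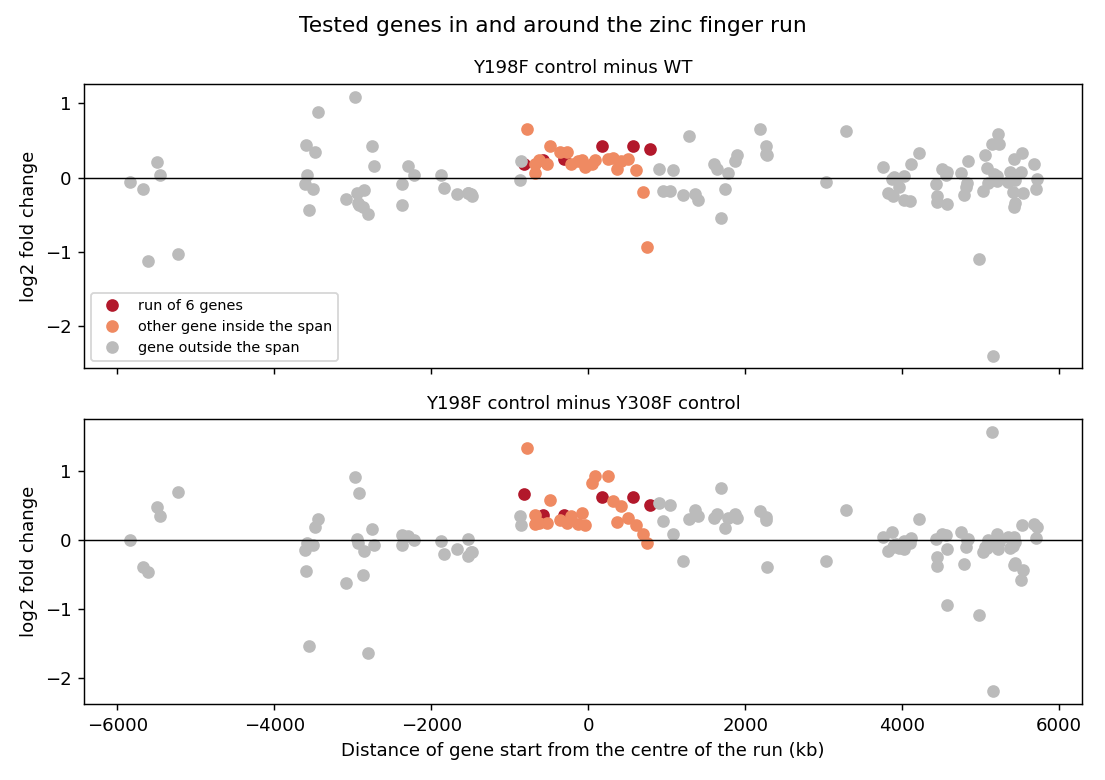
Log2 fold change of each tested gene against the distance of its start from the centre of the run in kb; red points are the 6 genes of the run, orange points other genes inside its span and grey points genes outside. In the upper panel 26 of the 28 genes inside the span lie above 0.

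The largest difference that recurred in other libraries of the same line was in Erdr1, erythroid differentiation regulator 1, whose copies on X (Erdr1x, chrX:168792690-168801793) and Y (Erdr1y, chrY:90796007-90833677) share sequence. Of the 100-base stretches of Erdr1x, 94.9% occur in Erdr1y, so the counts of the 2 were summed. The copies had near-equal counts in most libraries, such as 258 and 256 in Y198F control 2, but 317 and 258 in WT 1. How reads that match both copies were counted is not known here. If they were counted for each copy, the sums hold them more than once. The sum was 575, 587 and 839 counts in WT (29.7, 32.5 and 43.1 CPM), and 18, 0 and 20 counts in the Y308F controls (0.828, 0 and 1.1 CPM). The Y198F controls were split, with 8 counts in replicate 1 and 514 and 475 in replicates 2 and 3. All 3 Y308F mutants were as low as their controls, at 22, 24 and 2 counts, while KO had 1090 to 1642, the Y198F mutants 708 to 1285 and the S205A groups 661 to 3861. Mid1, listed before Erdr1x on X (chrX:168468195-168773794), was at 12.6 to 15.3 CPM in WT and 13.7 to 18.9 in the Y308F controls. Erdr1x and Erdr1y were named after their values were seen.

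In the control libraries alone neither copy passed adjustment: the log2 fold change between Y308F controls and WT was -5.89 for Erdr1x (SE 1.37, edgeR adjusted p 0.804) and -5.6 for Erdr1y (SE 1.37, edgeR adjusted p 0.804). Without Y198F control 1 the adjusted p in the same pair was 0.0348 and 0.0491. Between Y308F mutants and KO, in libraries that the control comparison does not use, Erdr1x was lower by -6.35 (SE 0.432) and Erdr1y by -6.41 (SE 0.444), each with an edgeR adjusted p of 0.00302. A fit of all 12 libraries of WT, KO, Y308F controls and Y308F mutants was added after the values were seen. It held 1 term for the line and 1 for the Panx1 change, taken as the same in KO and in the Y308F mutants. A difference found in KO alone can therefore enter the line term. The fit called 2 of 17278 genes for the line (0.0116%), where DESeq2 called 150 and edgeR with no filter on low counts 20. The 2 were Erdr1x (-6.14, SE 0.394, edgeR adjusted p 3.04e-05) and Erdr1y (-6.03, SE 0.425, edgeR adjusted p 6.78e-05). Since the copies share sequence, they are not 2 independent calls, here or between Y308F mutants and KO. Both stayed called without any 1 of the 12 libraries. The labels do not state that WT and KO came from 1 colony, so this term compares pairs of groups and not colonies.

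**Figure D4:**
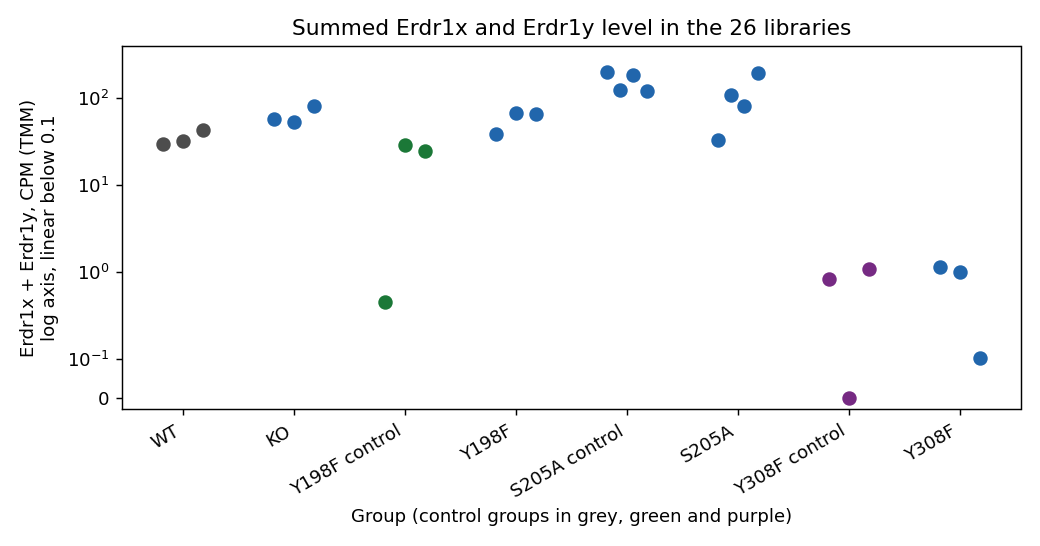
Summed CPM of Erdr1x and Erdr1y in all 26 libraries by group on a log axis that is linear below 0.1; control groups compared here are grey, green and purple, and the others blue. The 6 libraries of the Y308F line lie at 1.15 CPM or lower, together with Y198F control 1 at 0.448.

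Genes that differed between Y308F mutants and KO were set beside the controls in the same way. Between Y308F mutants and KO 8 of 16130 genes were called (0.0496%), and 13 were without Y308F 1 or Y308F 3. Besides the Erdr1 copies these were Plac9, Tmem254, Gm15446, Gm64463, Dynlt1b and the unplaced ENSMUSG00000095041. For 4 of these the difference was small or of the other sign between Y308F controls and WT. The log2 fold changes were 1.38 between mutants and KO against -0.36 between Y308F controls and WT for Plac9, 1.51 against -0.12 for Tmem254, -1.67 against -0.07 for Gm64463 and -1.27 against 0.04 for ENSMUSG00000095041. KO was the group that stood apart for these 4: Gm64463 was at 33.9 to 37.3 CPM in KO and at 26.4 or lower elsewhere, and ENSMUSG00000095041 at 338 to 365 in KO and at 248 or lower in all others, while Plac9 and Tmem254 were lowest in KO. Gm15446, a zinc finger gene, differed by 4.18 (SE 0.262) between Y308F mutants and KO and by 0.67 (SE 0.274, edgeR adjusted p 0.817) between Y308F controls and WT. It had 0.472 to 1 CPM in KO and 6.98 to 19.5 in the 9 control libraries. Dynlt1b, a dynein light chain with near-identical copies (63.8% of its stretches are shared), was at 34.9 to 40.9 CPM in WT and 28.3 to 30.5 in the Y308F controls, and at 35.8 to 47.2 in KO and 19.2 to 20.2 in the Y308F mutants. Ide, the insulin-degrading enzyme, was at 44.6 to 52.3 CPM in WT and 50.8 to 68.4 in the Y308F controls, with 43.9 to 48.6 in KO and 70.1 to 84.1 in the mutants (log2 fold change 0.72, SE 0.0988, edgeR adjusted p 0.0517). Between Y308F controls and WT 203 genes (1.21%) had an unadjusted p under 0.01, and 189 of them were tested in both comparisons. Of the 189, 158 (83.6%) had the same sign between Y308F mutants and KO, against 59.9% of all 15912 genes. No library is shared by these 2 comparisons, but Panx1 differs by design in the second.

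**Figure D5:**
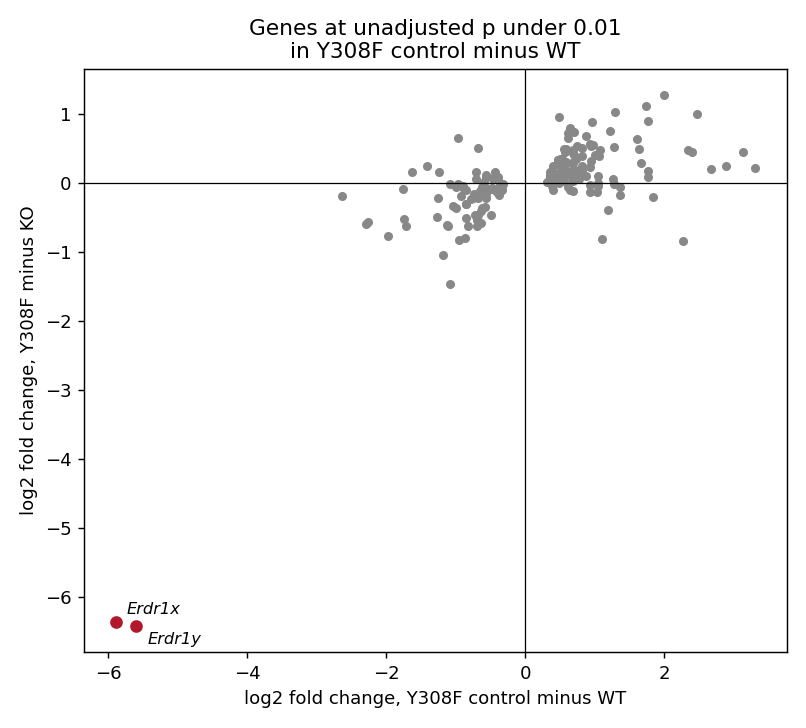
Log2 fold change between Y308F mutants and KO (vertical) against that between Y308F controls and WT (horizontal) for the 189 genes at an unadjusted p under 0.01 in the latter; red points are Erdr1x and Erdr1y. Of the 189 points, 158 lie in the lower left or upper right, and the Erdr1 copies lie at -5.89 and -5.6 on the horizontal axis.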

How the data were processed

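Per the labels' protocols, mesenteric artery RNA was purified on columns and poly(A) RNA was sequenced as pairs of 150 bases. The authors mapped reads with STAR 2.7.9a to GRCm39 and counted genes with featureCounts, per the labels' protocols. The annotation release and strand setting are not given in the sources used here, so overlapping and duplicated genes are uncertain. The deposited table holds raw whole-number counts. The authors' normalized table and comparison tables were not used here.

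Gene identifiers were matched to GENCODE vM39 (56310 of 57010), which also gave gene positions, transcript stretches and the starts before which GRCm39 sequence was read. In R 4.3.3, edgeR 4.0.16 fitted the 9 control libraries together (filterByExpr, TMM, robust quasi-likelihood F test, Benjamini-Hochberg over 16745 genes, threshold 0.05), and DESeq2 1.42.0 was the alternative; the code was tested on simulated data. Fold changes are on the log2 scale with edgeR's prior count of 0.125. A run was at least 3 genes, each next start within 1 Mb. Named genes were Panx1 and the 10 genes with a symbol and the smallest p over the 3 groups; no gene met the parts of the rule that need a call, and all others were named after their values were seen. The groups, lists and tests were chosen with earlier results of these data known. Counts differed between all replicates by far more than sampling noise (chi-square per degree of freedom 13.6 to 85.2), so each library counted as 1 sample. Alternatives covered the tool, scaling, low-count filter, ribosomal and mitochondrial genes, libraries in the fit, the replicate block and each library left out.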

Additional observations from a re-analysis of the deposited data

How the results depend on the processing

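The count of 0 called genes over the 3 groups held in edgeR with DESeq2 size factors, without ribosomal and mitochondrial RNA genes and with all 8 groups in 1 fit. With DESeq2 the counts were 61 over the groups and 62, 11 and 12 in the pairs (Y198F controls minus WT, Y308F controls minus WT, Y198F minus Y308F controls), and with no filter in edgeR 23, 22, 2 and 8. DESeq2 and the unfiltered edgeR fit shared 20 genes, 32.8% and 87% of their lists. With only the 2 groups of the pair, Y198F controls minus WT gave 3. With 1 library left out the counts ran from 0 to 2 over the groups and from 0 to 3, 0 to 2 and 0 to 1 in the pairs; calls came without WT 1, WT 2, Y198F control 1, Y308F control 1 or Y308F control 3. Without both WT 3 and Y308F control 1 they were 4, 3, 0 and 5. Runs of called genes numbered 0 under every setting. Runs at an unadjusted p under 0.01 numbered 1, but 6 with gaps up to 2 Mb, 33 with DESeq2, 2 with DESeq2 size factors, 26 with no filter, 3 with all 8 groups, 8 without both libraries and 0 to 26 with 1 library left out (0 without Y198F control 1 or 3, 26 without Y308F control 3). Y308F mutants minus KO gave 8 genes, 236 with DESeq2, 685 with no filter and 6 to 13 with 1 library left out (13 without Y308F 1 or 3). The line term gave 2 genes, 150 with DESeq2, 20 with no filter and 2 to 3 with 1 library left out. Panx1 between Y198F and Y308F controls was -0.07, ran from -0.34 to 0.22 with 1 library left out, and turned to 0.1 without Y198F control 3, 0.22 without Y308F control 1 and 0.24 without both libraries. The replicate numbers did not pair the samples: correlations of same-numbered libraries ran from -0.315 to 0.224, and the fit with the replicate block gave 0 genes over the groups and in each pair, 8 for Y308F minus KO and 2 for the line term. The cause of these changes was not tested. Depth was 17.3 to 23.1 M counts, so genes of a few counts carry wide errors.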
